A study of Homo sapiens with 8 samples.

Results

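The cytosolic ribosomal protein genes code for the protein parts of the ribosomes that translate nuclear messages. They were taken by name. Every protein-coding gene whose symbol is RPL or RPS followed by a number, with an optional X, A or L ending, was included, together with RPSA, RPLP0, RPLP1 and RPLP2. RPS6K kinases and pseudogenes were left out. The rule found 82 genes among the 60666 gene IDs of the table, 50 of the large subunit and 32 of the small subunit. The rule reads gene names and types alone.

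RNA sequencing was done on MRC5, an established human lung fibroblast line, in 4 groups of 2 libraries. The groups are cells with a hairpin RNA against MTHFD2 (shMTHFD2) given TGF-β1, shMTHFD2 cells without it, cells with a control hairpin (shMock) given TGF-β1, and shMock cells without it. The labels give 4 ng of TGF-β1, with no volume, and 24 h of incubation. MTHFD2 is a mitochondrial enzyme of folate metabolism, and TGF-β1 is a cytokine that activates fibroblasts. The question behind the design is how transcription under TGF-β1 differs when MTHFD2 is depleted. All cells carry a hairpin. There is 1 hairpin per target and no rescue or untransduced line, so a difference between shMTHFD2 and shMock is a difference between those cell lines. Nothing in the labels says that replicates came from separate cultures, so the p-values rest on variation among libraries that could be purely technical. The genotype fields of 3 shMTHFD2 libraries give another number after MTHFD, a different one in each. The extraction text names A549 cells and another hairpin. Groups were taken from the titles.

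MTHFD2 itself stood at 93.6 and 91.7 CPM (counts scaled to library size) in shMTHFD2 TGF-β1 libraries, 14.9 and 18.7 in shMTHFD2 control, 256 and 257 in shMock TGF-β1 and 58.7 and 57.0 in shMock control. It was lower in the shMTHFD2 libraries both with and without TGF-β1. The libraries held 18162738 to 22221927 counts, and a gene with 3 counts stands at 0.135 to 0.165 CPM. All 8 fibroblast markers looked at were above 1 CPM on average, with a summed level of 30180 to 53844 CPM. None of 7 lung epithelial markers averaged 1 CPM, their sum was 0.361 to 2.35 CPM, and KRT19, NKX2-1 and SFTPC had no counts. Of 5 endothelial markers 3 averaged at least 1 CPM, with PECAM1 and CDH5 at 0, and of 5 immune markers only CD68 did, with CD3E and MS4A1 at 0. In these bulk libraries a lower level can mean fewer cells of a kind or less RNA per cell, and the data cannot tell these apart.

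Each ribosome is built from a small subunit, which reads the message, and a large subunit, which joins the amino acids, and most of their proteins are present once per ribosome. Cells therefore keep the messages of these genes in step. Most of these messages begin with a cytosine followed by an unbroken run of pyrimidines, the 5′ terminal oligopyrimidine (TOP) motif, through which the kinase mTORC1 and the binding protein LARP1 control their translation and stability. Several of the genes also carry small nucleolar RNAs (snoRNAs), which guide the modification of ribosomal RNA, inside their introns.

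The sequence around the transcription start carries that shared feature and is shown for the members on which the results turn. Windows of 30 bases, from 20 bases before the RefSeq start to the 10th base of the transcript, were read from RefSeq promoter sequences (GRCh38.p14) on the strand of the gene. Capitals mark a run of C followed by at least 4 pyrimidines (C or T) that begins within 5 bases of the start, and the transcript begins at the 21st base shown.
RPL36, chr19:5690275-5690304, plus strand: gagttccgcgcggcgccagcCCTTCCgcca
RPS28, chr19:8321476-8321505, plus strand: ggctctccccgaagcacgtgaCTCCTCTCC
RPL12, chr9:127451397-127451426, minus strand: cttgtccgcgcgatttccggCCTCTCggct
RPL34, chr4:108620556-108620585, plus strand: ctggcaaaggcttttttcttCCTCTTCCgg
RPL28, chr19:55385912-55385941, plus strand: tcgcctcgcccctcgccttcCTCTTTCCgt
RPLP1, chr15:69452798-69452827, plus strand: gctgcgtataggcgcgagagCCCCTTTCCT
RPLP2, chr11:809947-809976, plus strand: gcctcttgcgtcggcgccttCCTTTTCCTC
RPS19, chr19:41860235-41860264, plus strand: gcccgggaaaccccgtcgttCCCTTTCCCC
RPS3A, chr4:151099608-151099637, plus strand: tcgcgcgactcccacttccgCCCTTTTggc
RPS14, chr5:150449730-150449759, minus strand: tcgctccgccccctcccactCTCTCTTTCC
RPL9, chr4:39458913-39458942, minus strand: tacaagtacgtaatgacgacagacgttctt
RPS27L, chr15:63157468-63157497, minus strand: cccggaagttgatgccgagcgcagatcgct

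RefSeq windows were at hand for 65 of the 82 genes. The run began exactly at the annotated start in 46 of those 65 (70.8%), against 1404 of 27305 genes with a window (5.14%). It began within 5 bases of the start in 54 members (83.1%), against 25.2% of all genes with a window. The windows of RPL9 and RPS27L held no such run, and in RPS28 it began 1 base after the annotated start. The strand searched was that of the gene, and a missing run says only that these letters are not in this window.

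The ribosomal protein genes were expressed at high and unequal levels. Of the 82, 80 passed the filter of 1 CPM on average over the 8 libraries. RPL3L and RPL10L, which are known for expression in muscle and testis, had no counts in any library. The share of all counts that fell on the 82 genes was 2.75 and 2.47% in shMTHFD2 TGF-β1, 2.87 and 2.69% in shMTHFD2 control, 2.43 and 2.35% in shMock TGF-β1 and 2.70 and 3.01% in shMock control. As mean ± SD (n = 2 each) this is 2.61 ± 0.199% in shMTHFD2 TGF-β1, 2.78 ± 0.127% in shMTHFD2 control, 2.39 ± 0.0569% in shMock TGF-β1 and 2.85 ± 0.218% in shMock control. Both shMock TGF-β1 libraries lay below the other 6, and the groups of shMTHFD2 with and without TGF-β1 overlapped. These shares are a description and were not tested. Counts on mitochondrial genes took 3.83 to 7.74% of a library and move these shares as well.

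Per kilobase of the principal transcript, levels over the 8 libraries were highest for RPS27 (1119.5 CPM per kb), RPLP0 (835), RPL3 (830.2), RPL41 (816) and RPL13 (807). RPLP0 is the base of the ribosomal stalk, RPL3 lies near the peptidyl transferase centre and RPL41 is the smallest of the proteins. The lowest of the tested members was RPL39L, at 5.46 CPM per kb. It was followed by RPS27L (17.1), RPL37 (46.9), RPL27A (64.2) and RPS23 (103), whose annotated principal transcripts are long, at 3437 to 7686 bases, so that their rank rests on that length. Levels in CPM, not per length, ran from 3.56 for RPL39L to 1197 for RPL3, with a median of 268 over the 80 members.

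Paralogs with an L ending were set beside their partners. RPL39L, a relative of RPL39 that is known from testis, was at 2.96 and 3.10 CPM in shMTHFD2 TGF-β1, 3.33 and 4.59 in shMTHFD2 control, 3.46 and 2.63 in shMock TGF-β1 and 3.72 and 4.73 in shMock control. RPL39, which lines the exit tunnel for the new protein, was at 103 to 134 CPM over the same libraries. RPL36AL (101 to 136 CPM) and its near-copy RPL36A (92.9 to 115 CPM) were of like level, and reads of such close relatives could have been shared out between them. RPS27L, which p53 is known to induce, ranged from 93.7 to 135 CPM, while RPS27 ranged from 353 to 469 CPM. RPL3, the partner of RPL3L, ranged from 1155 to 1299 CPM, and RPL10, the partner of RPL10L, from 837 to 999.9 CPM. RPL10 is 1 of the last proteins to join the large subunit.

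**Figure D1:**
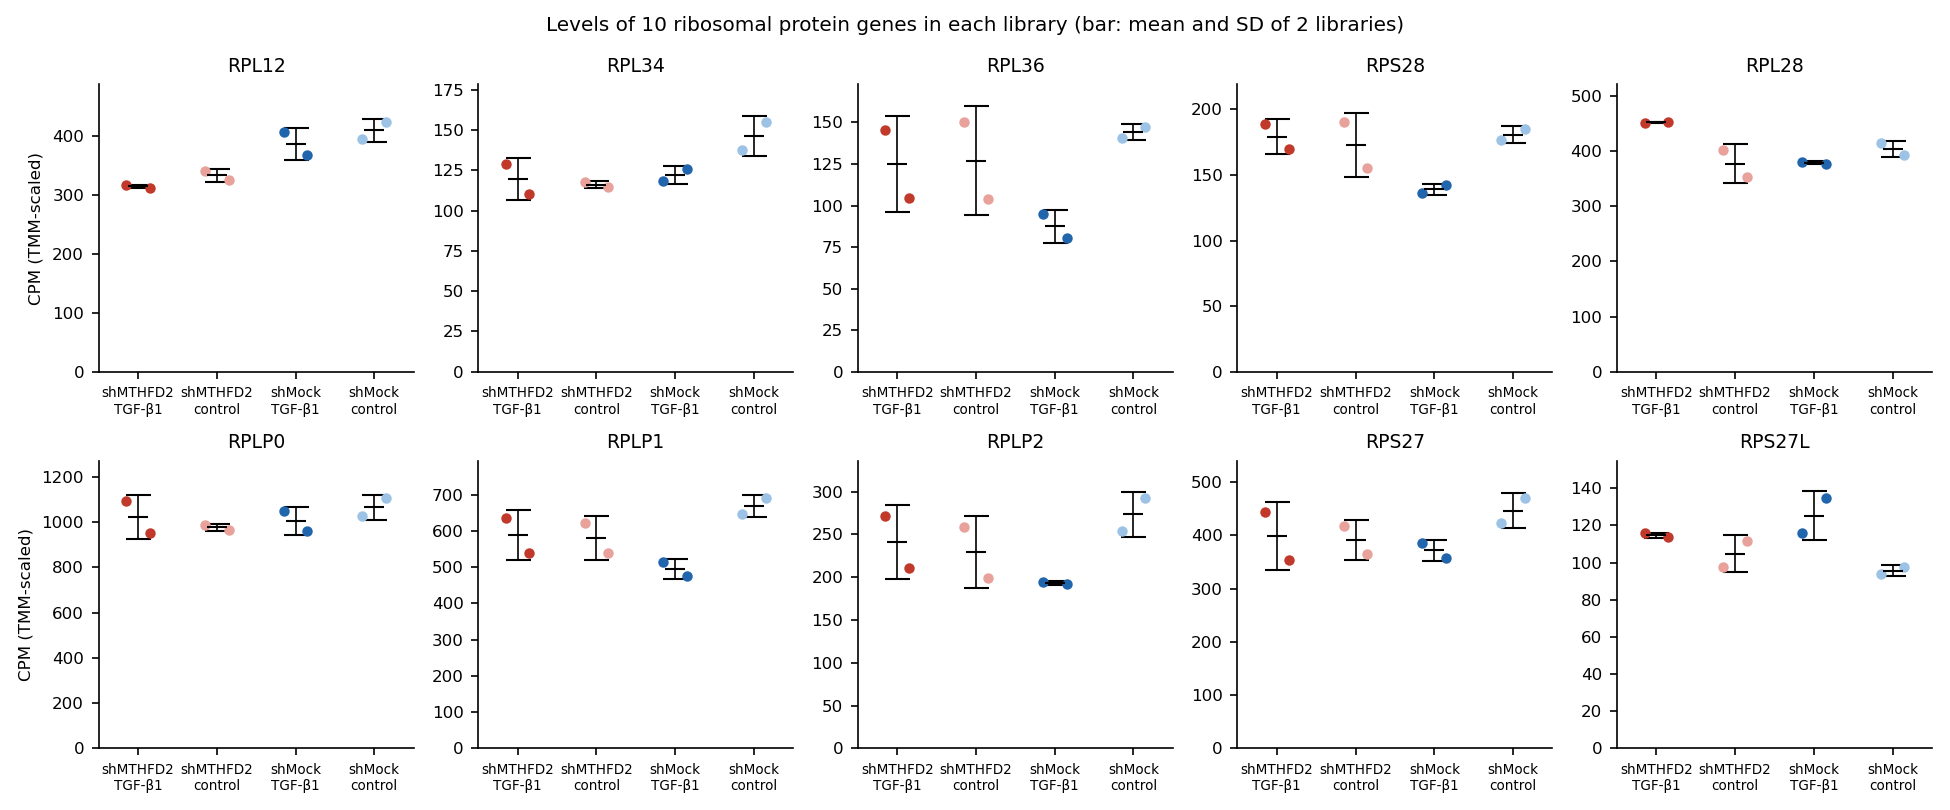
Level of 10 ribosomal protein genes in CPM on linear axes that start at 0, with 1 point per library for the 4 groups of hairpin and treatment and bars for the mean and SD of 2 libraries. RPL36 and the stalk gene RPLP2 are lowest in the shMock TGF-β1 libraries, and RPL12 is lower in all 4 shMTHFD2 libraries than in the 4 shMock libraries.

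With TGF-β1, most ribosomal protein genes stood at nearly the same level in shMTHFD2 and shMock cells. RPL36 and RPS28 were higher in shMTHFD2 cells and RPL12 was lower, and the other 77 tested members did not pass the test. That is 2 higher and 1 lower of 80, 3.75% of the members, where 4.83% of the 13493 tested genes were called higher and 8.23% lower, 13.1% in either direction (edgeR quasi-likelihood test, Benjamini-Hochberg adjusted p under 0.05). The median log2 fold change of the members was 0.02, beside 0.01 for all tested genes, and turned to -0.07 without shMTHFD2 TGF-β1 replicate 1 and to 0.09 without replicate 2. The fold changes of the members ran from -0.30 to 0.51.

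RPL36, a large subunit protein, was at 146 and 105 CPM in shMTHFD2 TGF-β1 libraries, against 94.6 and 80.6 CPM in shMock TGF-β1 libraries. The groups did not overlap, although the shMTHFD2 replicates were far apart. The log2 fold change was 0.51 (SE 0.16, edgeR adjusted p = 0.046), 1.43-fold higher. RPS28, which sits near the exit of the message channel of the small subunit, was at 189 and 169.8 CPM in shMTHFD2 TGF-β1 libraries, against 136 and 142 CPM in shMock TGF-β1 libraries. Both shMTHFD2 libraries were above both shMock libraries, with a log2 fold change of 0.37 (SE 0.10, edgeR adjusted p = 0.022).

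RPL12, which binds ribosomal RNA at the foot of the stalk, was at 316 and 313 CPM in shMTHFD2 TGF-β1 libraries, against 406 and 367 CPM in shMock TGF-β1 libraries. The groups did not overlap, and the 2 shMTHFD2 libraries were nearly equal. The log2 fold change was -0.30 (SE 0.08, edgeR adjusted p = 0.025), 1.23-fold lower. RPL12 holds the snoRNA SNORA65 in an intron and has 50 pseudogenes in the table, and its exons overlap no other gene. RPL36 overlaps exons of HSD11B1L on the same strand and of LONP1 on the other, and RPS28 overlaps KANK3, NDUFA7 and AC010323.1 on the other strand. The use of strand in the counting is not given, so part of the counts of RPL36 and RPS28 may belong to those genes. With offsets for GC content, a setting added after the data were seen, the call of RPL36 was lost (0.37, edgeR adjusted p = 0.115), and that of RPS28 and RPL12 remained. Each of the 3 calls was lost without at least 2 single libraries, shMock TGF-β1 replicate 1 and shMTHFD2 TGF-β1 replicate 1 among them, and scaling by library totals alone gave 7 higher and 0 lower.

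Without TGF-β1, RPL12 and RPL34 were lower in shMTHFD2 cells, no member was called higher, and the members as a group sat slightly below all genes. Of 80 tested members 0 were higher and 2 were lower, 2.5%, where 3.25% of all tested genes were higher, 8.19% lower and 11.4% called in either direction. The edgeR test gave 0 higher and 8 lower members at an unadjusted p under 0.05, and DESeq2 gave 0 higher and 2 lower at its adjusted threshold. At the same unadjusted level 9.42% of all tested genes were higher and 15.6% lower, more than the 10% of members that were lower. The median log2 fold change was -0.10 for the members and -0.01 for all tested genes, with the members' median at -0.17 without shMock control replicate 1 and -0.05 without replicate 2. Fold changes were below 0 for 75 of the 80 members, among them 47 of 48 large subunit and 28 of 32 small subunit genes. All these values share the same 4 libraries, so they are not independent of each other.

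RPL34, a large subunit protein, was at 118 and 114 CPM in shMTHFD2 control libraries, against 138 and 155 CPM in shMock control libraries. The groups did not overlap, with a log2 fold change of -0.33 (SE 0.09, edgeR adjusted p = 0.028), 1.26-fold lower. RPL12 was at 341 and 326 CPM in shMTHFD2 control libraries, against 396 and 424 CPM in shMock control libraries. Both shMTHFD2 libraries were again lower, with a log2 fold change of -0.30 (SE 0.08, edgeR adjusted p = 0.027). RPL12 was thus the only member called between the lines both with and without TGF-β1. The libraries compared differ, but the cell lines and the fit, with its estimate of the spread, are the same. Both calls remained with offsets for GC content and were lost with library totals alone, and RPL12 remained in 3 and RPL34 in 5 of 8 fits that left out 1 library.

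**Figure D2:**
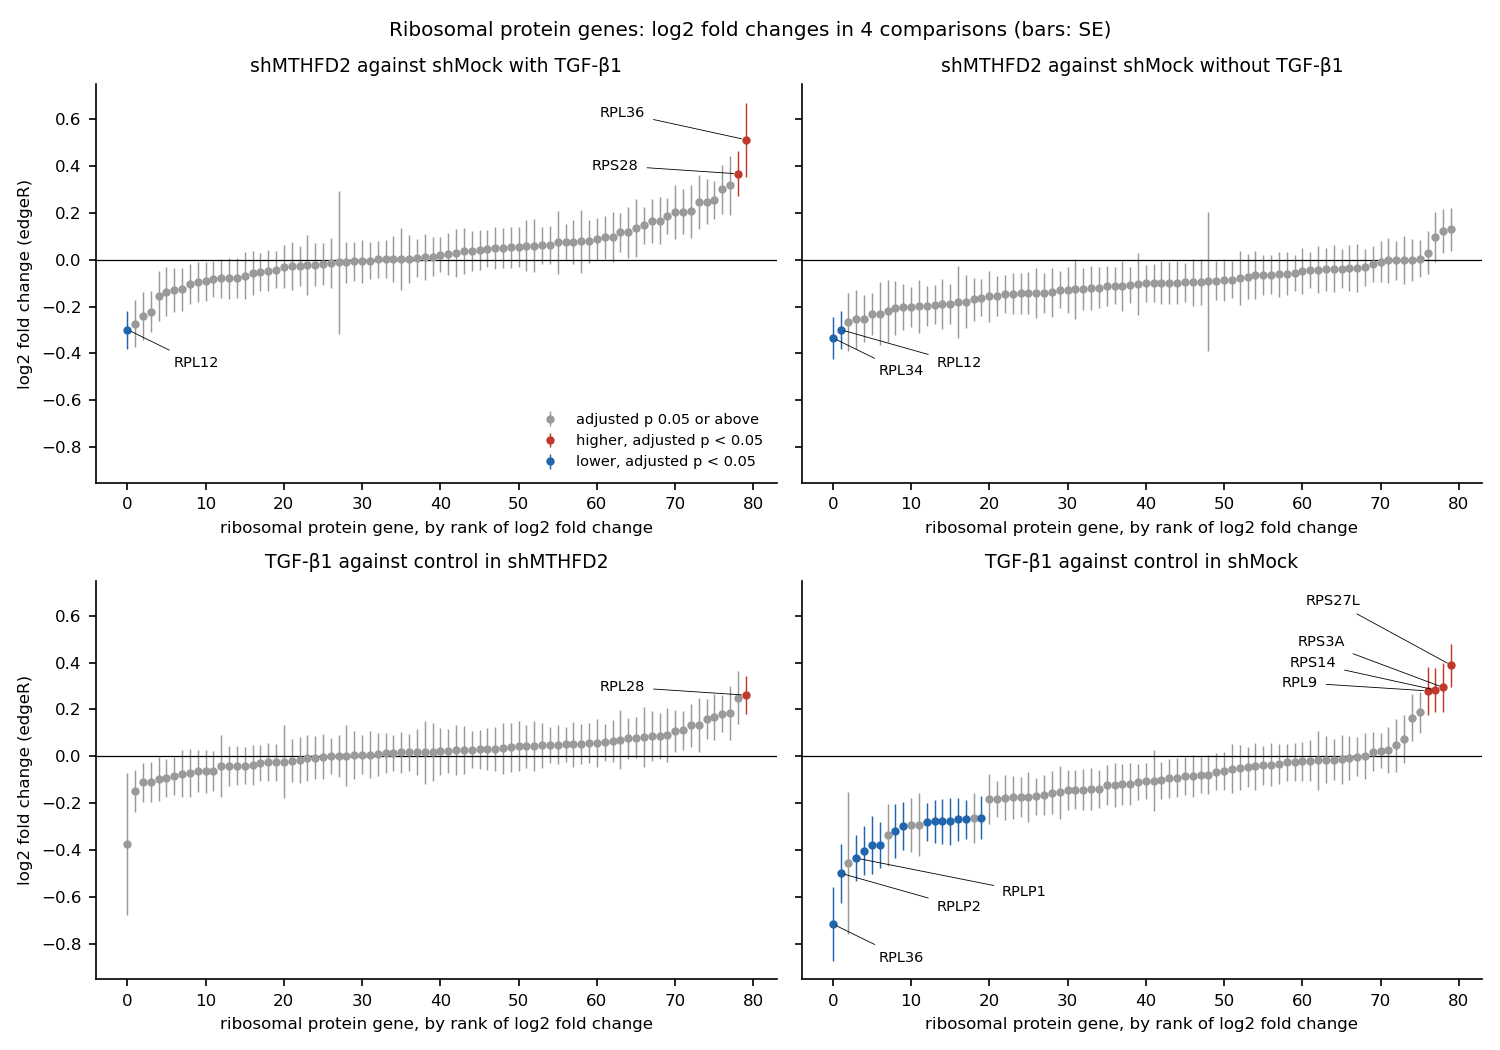
Log2 fold changes (edgeR) of the 80 tested ribosomal protein genes, ranked within each of 4 comparisons, with bars for the SE. Red and blue points are genes past the adjusted threshold, and TGF-β1 in shMock has 4 higher and 15 lower members, against 1 higher in shMTHFD2.

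In shMTHFD2 cells, TGF-β1 left the ribosomal protein genes close to their control level, and RPL28 alone passed the test. Of 80 tested members 1 was higher and 0 were lower, 1.25%, where 12.8% of all tested genes were higher, 11% lower and 23.8% called in either direction. At an unadjusted p under 0.05 edgeR gave 3 higher and 0 lower members, where 17.7% of all tested genes were higher and 16.5% lower, and DESeq2 gave 2 higher and 0 lower at its adjusted threshold. The median log2 fold change was 0.02 for the members, with -0.07 without shMTHFD2 TGF-β1 replicate 1 and 0.11 without replicate 2, and -0.01 for all tested genes. The median size of change, either way, was 0.04 for the members and 0.21 for all tested genes.

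RPL28, a large subunit protein that budding yeast lacks, was at 451 and 453 CPM in shMTHFD2 TGF-β1 libraries, against 402 and 352 CPM in shMTHFD2 control libraries. The groups did not overlap, with a log2 fold change of 0.26 (SE 0.08, edgeR adjusted p = 0.031), 1.20-fold higher. The stalk gene RPLP0 was at 1092 and 953 CPM in shMTHFD2 TGF-β1 libraries, against 987 and 966 CPM in shMTHFD2 control libraries, a log2 fold change of 0.07 (SE 0.09, edgeR adjusted p = 0.66) with overlapping groups. The call of RPL28 was lost with library totals, with upper-quartile factors and in 3 of 8 fits that left out 1 library. Library totals gave 0 higher and 2 lower members, and the members' median then stood at -0.09 and that of all tested genes at -0.12.

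In shMock cells, TGF-β1 went with lower levels of 15 members, led by RPL36 and the stalk genes RPLP1 and RPLP2, and with higher levels of RPS27L, RPS3A, RPS14 and RPL9. These 19 of 80 are 23.8% of the members, below the 35.4% of all tested genes that were called in this comparison. In the lower direction it was 15 of 80, where 18.1% of all tested genes were called, and in the higher direction 4 of 80, where 17.3% were called. By subunit, 1 was higher and 10 lower of 48 large subunit genes, and 3 were higher and 5 lower of 32 small subunit genes. The median log2 fold change was -0.11 for the members, with a range of -0.16 to -0.07 when 1 library was left out, and -0.02 for all tested genes.

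RPL36 was at 94.6 and 80.6 CPM in shMock TGF-β1 libraries, against 141 and 147 CPM in shMock control libraries. Both TGF-β1 libraries were clearly below both control libraries. Its log2 fold change of -0.72 (SE 0.16, edgeR adjusted p = 0.0024), 1.64-fold lower, was the largest fall of any member in the 4 comparisons. In shMTHFD2 cells the same gene was at 146 and 105 CPM with TGF-β1, against 150.2 and 104 CPM in the control libraries, where the groups overlapped.

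The stalk of the large subunit, built of RPLP0 with RPLP1 and RPLP2, calls translation factors to the ribosome. RPLP2 was at 195 and 192 CPM in shMock TGF-β1 libraries, against 255 and 292 CPM in shMock control libraries, a log2 fold change of -0.50 (SE 0.13, edgeR adjusted p = 0.0063). RPLP1 was at 514 and 475 CPM in shMock TGF-β1 libraries, against 648 and 689.7 CPM in shMock control libraries, a log2 fold change of -0.43 (SE 0.10, edgeR adjusted p = 0.0028). Neither gene's groups overlapped. Their anchor RPLP0 was at 1048 and 962 CPM with TGF-β1, against 1025 and 1104 CPM without it, and did not pass (-0.08, SE 0.09, edgeR adjusted p = 0.5). Exons of RPLP2 overlap PIDD1 on the other strand, and those of RPLP1 overlap no other gene.

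Other members called lower included RPS19, RPL13, RPS28 and RPL11. RPS19, needed to mature the small subunit RNA and mutated in Diamond-Blackfan anaemia, was at 303 and 325 CPM in shMock TGF-β1 libraries, against 414 and 415 CPM in shMock control libraries (log2 fold change -0.40, SE 0.10, edgeR adjusted p = 0.0074). RPL11, which with RPL5 and the 5S RNA can bind the p53 regulator MDM2, was at 382 and 344 CPM in shMock TGF-β1 libraries, against 425 and 468 CPM in shMock control libraries (-0.30, edgeR adjusted p = 0.033). The groups of both genes did not overlap. The log2 fold change was -0.38 for RPL13 and -0.38 for RPS28. The smallest of the called falls, those of RPL36AL and RPL34 among them, had log2 fold changes of -0.28 to -0.26. RPL36AL, at -0.28, passed the test, while its near-copy RPL36A, at -0.12, did not.

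RPS27L was at 116 and 135 CPM in shMock TGF-β1 libraries, against 93.7 and 97.7 CPM in shMock control libraries, a log2 fold change of 0.39 (SE 0.09, edgeR adjusted p = 0.0038). Its partner RPS27 was at 386 and 358 CPM in shMock TGF-β1 libraries, against 424 and 469 CPM in shMock control libraries, and did not pass (-0.26, edgeR adjusted p = 0.069). The groups of each gene did not overlap, in opposite directions. Such separation was common in this comparison, with 5 of 80 tested members above and 42 below without overlap. The share over all tested genes was not counted. RPS3A was at 313 and 280.1 CPM in shMock TGF-β1 libraries, against 216 and 268 CPM in shMock control libraries (0.29, edgeR adjusted p = 0.043). RPS14, whose loss underlies the anaemia of the 5q deletion syndrome, was at 213 and 203 CPM in shMock TGF-β1 libraries, against 161 and 181 CPM in shMock control libraries (0.28, edgeR adjusted p = 0.029). RPL9 was at 197 and 166 CPM in shMock TGF-β1 libraries, against 136 and 163 CPM in shMock control libraries (0.28, edgeR adjusted p = 0.044), so the nearest libraries of RPL9 almost touched. Exons of RPS3A overlap SH3D19 and those of RPL9 overlap LIAS, each on the other strand.

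These counts depended on single libraries and on the scaling. The 15 lower calls became 3 without shMock control replicate 2, 5 without shMock TGF-β1 replicate 2 and 9 without shMock TGF-β1 replicate 1, and the 4 higher calls became 1 without either shMock control replicate 1 or shMock TGF-β1 replicate 1. Library totals alone gave 1 higher and 47 lower, with the median of all tested genes at -0.16 and that of the members at -0.25, a gap of -0.09 beside -0.08 in the fit reported above. Upper-quartile factors gave 1 higher and 20 lower. Summed levels of the endothelial and immune marker genes moved with TGF-β1 in the same libraries. PECAM1, CDH5, CD3E and MS4A1 had no counts, so these sums do not show that endothelial or immune cells were present in this fibroblast line. The endothelial sum, made up of VWF, KDR and TEK, was 43.2 to 48.8 CPM in shMock TGF-β1, against 98.7 to 110.0 CPM in shMock control, and 40.7 to 43.3 CPM in shMTHFD2 TGF-β1, against 96.7 to 104 CPM in shMTHFD2 control. The immune sum was 53.4 to 58.5 CPM in shMock TGF-β1, against 101 to 106 CPM in shMock control, and its part in the members' values was not tested, nor was that of the endothelial sum. RPL36, RPLP1 and RPS27L were called in all 8 fits that left out 1 library and in the 10 other settings tried.

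Fold changes of the members ran with the GC content of their transcripts. In shMock, the Spearman correlation of the TGF-β1 log2 fold change with GC content was -0.376 over the 80 members, and -0.287 over 13416 genes. It was 0.465 over the members and 0.336 over all genes for shMTHFD2 against shMock with TGF-β1, -0.230 and -0.138 for the same without TGF-β1, and 0.165 and 0.0232 for TGF-β1 in shMTHFD2. These are descriptions across genes that share the same libraries. The 26 members with the highest GC content (52.4 to 63.6%) had a median log2 fold change of -0.17 with TGF-β1 in shMock, and the 26 with the lowest (42.1 to 47.5%) had -0.05. Between replicates of 1 group, the correlation with GC content was -0.0362 in shMTHFD2 TGF-β1, -0.372 in shMTHFD2 control, -0.00298 in shMock TGF-β1 and -0.364 in shMock control, so it was present in both control groups and near 0 in both TGF-β1 groups. With offsets for GC content, 8 of the 15 lower calls and 2 of the 4 higher calls in shMock remained, 10 members were called lower in all, and RPL36 (-0.54), RPLP1 (-0.45) and RPS27L (0.31) were among those kept. RPLP2, at -0.27, was lost with an edgeR adjusted p of 0.0591.

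**Figure D3:**
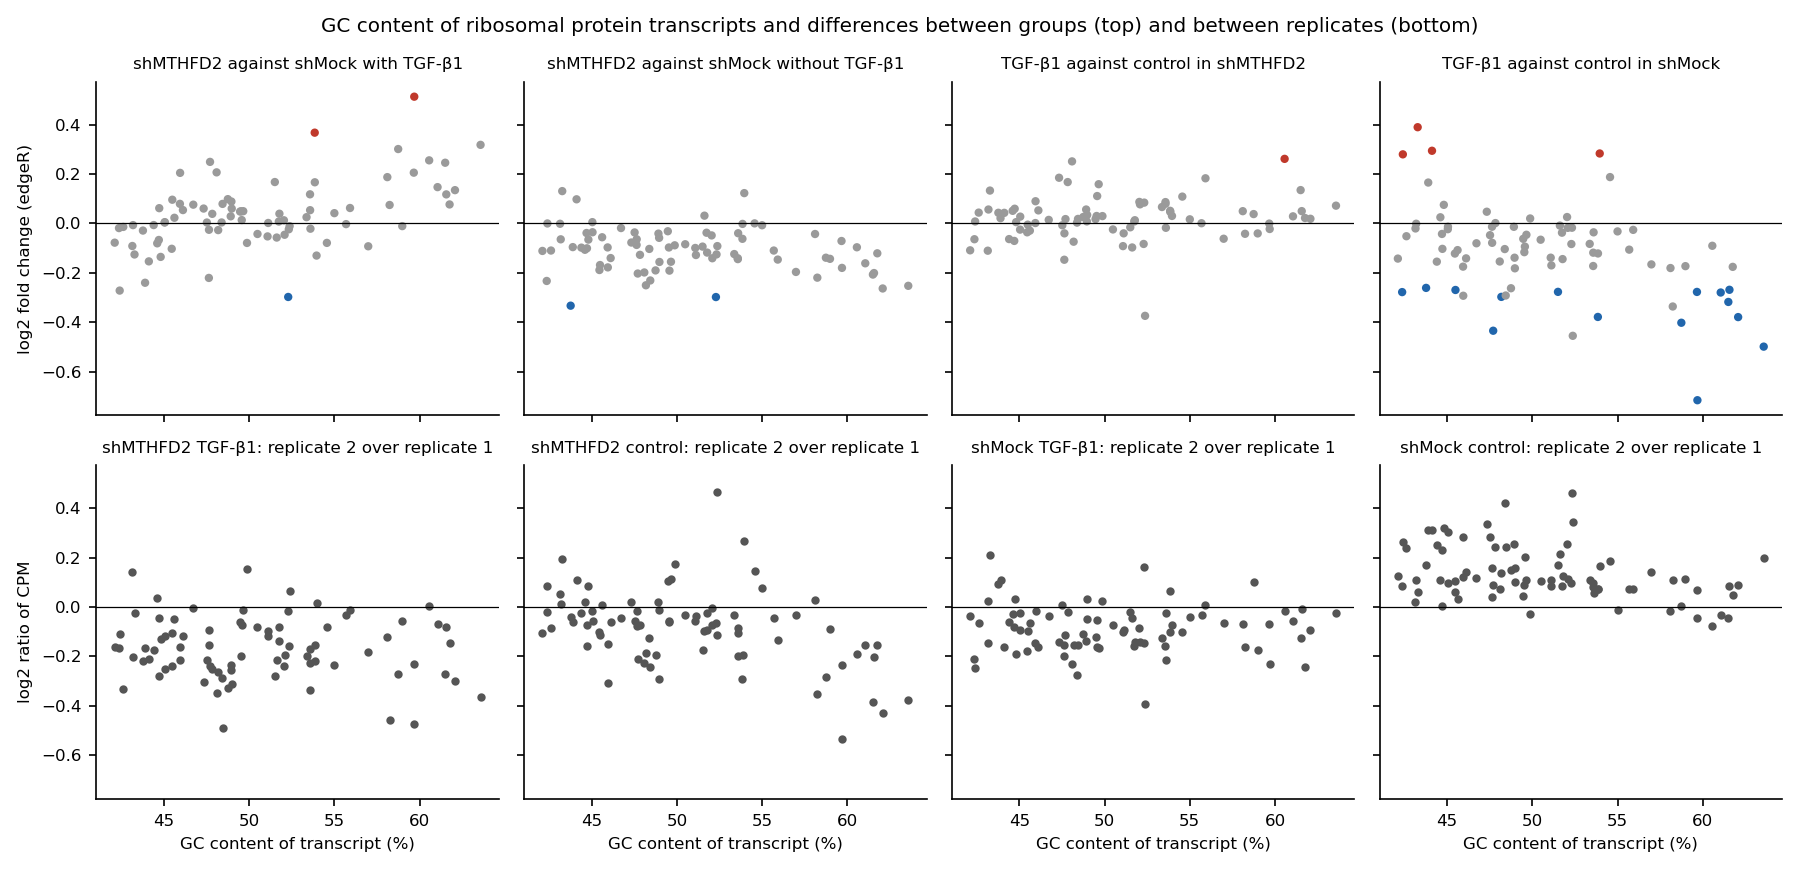
GC content of the principal transcript, in percent, against the log2 fold change (edgeR) in 4 comparisons (top; red called higher, blue called lower, grey not called) and the log2 ratio of replicate 2 over replicate 1 in the 4 groups (bottom), 1 point for each of the 80 tested ribosomal protein genes. With TGF-β1 in shMock the GC-rich members tend to lie lower (Spearman correlation -0.376). For shMTHFD2 against shMock with TGF-β1 they tend to lie higher (0.465).

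The difference between the TGF-β1 responses of shMTHFD2 and shMock cells was tested as an interaction, and 0 of the 80 members passed. At an unadjusted p under 0.05 edgeR gave 13 members, 13 of them with a higher response in shMTHFD2, and DESeq2 gave 0 at its adjusted threshold. The 13 are 16.2% of the members, all in the higher direction. At that unadjusted level 7.64% of all tested genes were higher, 5.08% lower and 12.7% in either direction. Only 0.0889% of all tested genes passed this test, 12 in all (0.0371% higher and 0.0519% lower), so it called few genes of any kind. The median interaction was 0.13 for the members and 0.02 for all tested genes, and the members' median was 0.02 without shMTHFD2 TGF-β1 replicate 1 and 0.21 without shMock control replicate 1. The highest were RPL36 (0.69, SE 0.22, edgeR adjusted p = 0.24) and RPLP2 (0.57, SE 0.18, edgeR adjusted p = 0.24). The Spearman correlation of the interaction with GC content was 0.444 over the members and 0.475 over 13416 genes. Its median was 0.22 over the 26 members with the highest GC content, RPL36 and RPLP2 among them, and 0.07 over the 26 with the lowest. With offsets for GC content the members' median was 0.11. Every value in this difference uses the shMock TGF-β1 libraries, which also enter 2 of the comparisons above. That 15 members fell with TGF-β1 in shMock and 0 in shMTHFD2 is therefore not shown to be a difference between the lines for any single gene.

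The members also moved together between replicates of the same group. In shMTHFD2 TGF-β1, 74 of 80 members were lower in replicate 2 than in replicate 1, with a median log2 difference of -0.17. In shMTHFD2 control 62 were lower in replicate 2 (median -0.07), in shMock TGF-β1 68 were lower in replicate 2 (median -0.09), and in shMock control 73 were higher in replicate 2 (median 0.11). These shifts between libraries of 1 group are about as large as the median shifts between groups, which ran from -0.11 to 0.02. The widest gap of any tested member was in RPL36, whose shMTHFD2 control replicates differed by -0.53.

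**Figure D4:**
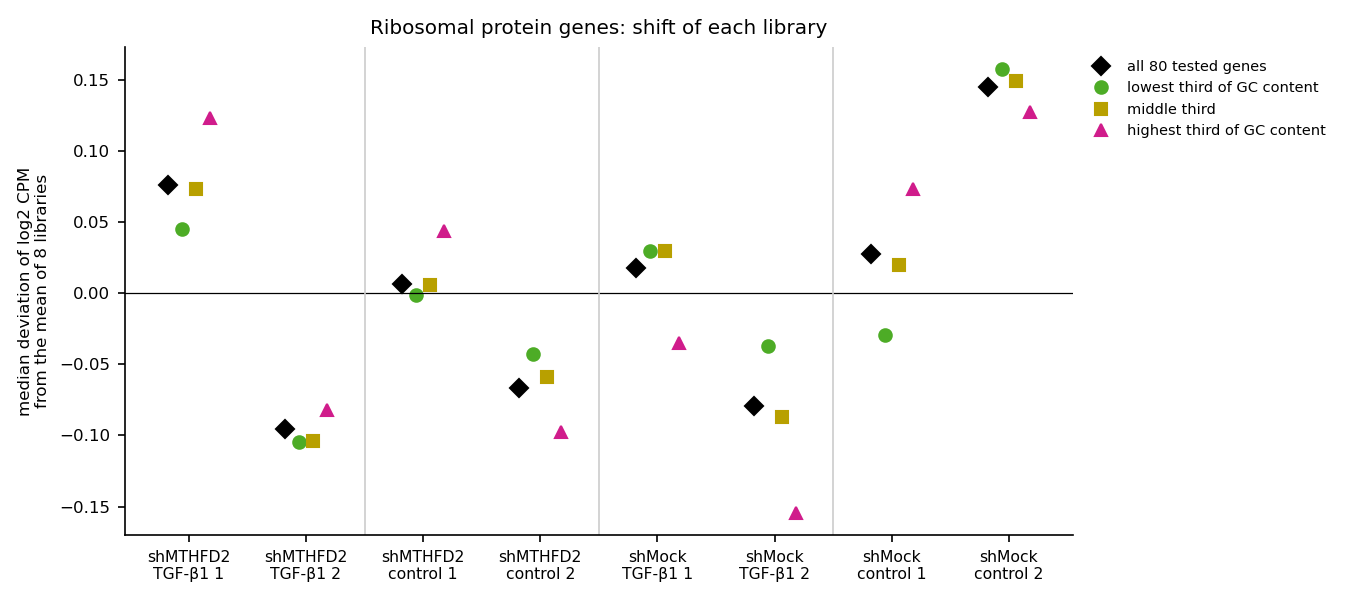
Median deviation of log2 CPM from the mean of the 8 libraries, for each library, over all 80 tested ribosomal protein genes (black diamonds) and over those of low (green circles), middle (yellow squares) and high GC content (pink triangles). shMock control replicate 2 has the highest median, at 0.14, and shMTHFD2 TGF-β1 replicate 2 the lowest, at -0.10.

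Features that the name rule did not use were set beside these results. The 28 members that hold snoRNA genes, 60 in all, had 1 higher and 5 lower calls with TGF-β1 in shMock (median -0.10), and the 52 tested members without any had 3 higher and 10 lower (median -0.12). By the pyrimidine run, the 46 members with the run at the start had 2 higher and 10 lower calls (median -0.09), and the 18 tested members whose run was elsewhere or missing had 2 higher and 3 lower (median -0.14). The 39 members whose exons overlap another gene had 2 higher and 6 lower calls (median -0.12), and the 41 tested members without overlap had 2 higher and 9 lower (median -0.08). Pseudogenes exist in the table for 77 members, 1587 in all and 133 for RPL21, and their counts came to 1.58 to 1.84% of the members' own. Summing each member with its pseudogenes left the counts of calls as they were in all 5 comparisons.

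Ribosome parts outside the name rule were read beside the members. RACK1, a scaffold on the small subunit, and FAU, which codes for RPS30 fused to a ubiquitin-like protein, had 0 calls by edgeR and 0 by DESeq2 in each comparison. RACK1 was at 812 and 746 CPM in shMock TGF-β1 libraries, against 771 and 802 CPM in shMock control libraries, with overlapping groups (-0.01, edgeR adjusted p = 0.92). RPL7L1, a relative outside the name rule, ranged from 116 to 126 CPM. Of 78 mitochondrial ribosomal protein genes, which serve the separate ribosome of the mitochondrion, 1 was higher and 17 were lower with TGF-β1 in shMock (median -0.19), 4 were higher and 6 lower with TGF-β1 in shMTHFD2 (median -0.06), 3 were higher and 2 lower in shMTHFD2 against shMock with TGF-β1, and 0 were higher and 3 lower without it. For that last 0, edgeR gave 2 higher at an unadjusted p under 0.05 and DESeq2 gave 0. DESeq2 called 12 of these genes lower with TGF-β1 in shMock and 1 lower in shMTHFD2, fewer than edgeR did. By edgeR, calls with TGF-β1 took 23.1% of these genes in shMock, beside 35.4% of all tested genes, and 12.8% in shMTHFD2, beside 23.8%. Between the lines they took 6.41% with TGF-β1, beside 13.1%, and 3.85% without it, beside 11.4%.

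Other genes whose messages carry TOP motifs were read as well. Of 19 translation factors and related genes, 0 were higher and 2 lower in shMTHFD2 against shMock with TGF-β1 (EIF4A2 at -0.34 and EEF1B2 at -0.29), with 1 higher at an unadjusted p under 0.05 and 0 by DESeq2. EEF1B2, a nucleotide exchange factor of translation elongation, rose with TGF-β1 in both lines, by 0.33 in shMTHFD2 (edgeR adjusted p = 0.012) and 0.40 in shMock (edgeR adjusted p = 0.0025) on the log2 scale. In the same list VIM was lower in shMTHFD2 against shMock without TGF-β1 (-0.32) and higher with TGF-β1 in shMTHFD2 (0.28), EIF3E was lower with TGF-β1 in shMTHFD2 (-0.28), and EEF1D was lower with TGF-β1 in shMock (-0.30). Calls took 15.8% of the list with TGF-β1 in shMTHFD2, beside 23.8% of all tested genes, and 10.5% in shMock, beside 35.4%. Between the lines they took 10.5% with TGF-β1, beside 13.1%, and 5.26% without it, beside 11.4%. Of 11 non-coding snoRNA host genes, 2 were higher with TGF-β1 in each line. These were SNHG8 (0.59) and SNHG16 (0.26) in shMTHFD2 and SNHG16 (0.33) and SNHG5 (0.29) in shMock. Calls took 18.2% of the host genes in each line, beside 23.8% of all tested genes in shMTHFD2 and 35.4% in shMock.

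Among regulators of ribosome production, fold changes of MYC and EIF4EBP1 between shMTHFD2 and shMock were larger in size than that of any member, with and without TGF-β1. MYC, a transcription factor known to raise ribosome production, was at 11.7 and 12 CPM in shMTHFD2 TGF-β1 libraries, against 20.6 and 20.2 CPM in shMock TGF-β1 libraries (log2 fold change -0.78, SE 0.16, edgeR adjusted p = 0.0052). Without TGF-β1 it was at 14.3 and 12.5 CPM in shMTHFD2 control libraries, against 28.8 and 20.4 CPM in shMock control libraries (-0.87, SE 0.16, edgeR adjusted p = 0.002). Of 4 tested MYC family genes, MXD4 was higher (0.33, edgeR adjusted p = 0.016) and MYC lower with TGF-β1, 50% beside 13.1% of all tested genes. Without TGF-β1 only MYC was called, 25% beside 11.4%. EIF4EBP1, the translation repressor that mTORC1 switches off, was at 40.0 and 40.7 CPM in shMTHFD2 TGF-β1 libraries, 13.4 and 14.9 in shMTHFD2 control, 64.5 and 59.3 in shMock TGF-β1 and 22.9 and 24.7 in shMock control. It was higher with TGF-β1 in both lines (1.51 in shMTHFD2 and 1.38 in shMock) and lower in shMTHFD2 than in shMock with and without TGF-β1 (-0.62 and -0.75). RHEB, the activator of mTORC1, was lower in shMTHFD2 with and without TGF-β1 (-0.31 and -0.35). TSC2, from the same list, was higher in shMTHFD2 with TGF-β1 (0.29). Between the lines, 1 of 15 tested regulators of mTORC1 and TOP messages was higher and 2 were lower with TGF-β1, 20% beside 13.1%. Without it 0 were higher and 2 lower, 13.3% beside 11.4%, with 4 higher at an unadjusted p under 0.05 and 1 by DESeq2. The list's median log2 fold change was 0.14 with TGF-β1 and 0.10 without it. Of the 15 tested regulators of mTORC1 and TOP messages, 4 were higher and 1 lower with TGF-β1 in shMTHFD2, and 4 higher and 2 lower in shMock, with DDIT4, an inhibitor of the pathway, at 0.88 and 0.99. Calls took 33.3% of these regulators in shMTHFD2, beside 23.8% of all tested genes, and 40% in shMock, beside 35.4%.

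Ribosome assembly factors, 32 in all, had 4 higher and 0 lower calls with TGF-β1 in shMTHFD2, where edgeR gave 0 lower at an unadjusted p under 0.05 and DESeq2 gave 0. In shMock they had 3 higher and 4 lower. Calls took 12.5% of this list in shMTHFD2, beside 23.8% of all tested genes, and 21.9% in shMock, beside 35.4%. GNL3, a nucleolar GTPase, was higher with TGF-β1 in both lines, at 55.2 and 56.2 CPM in shMTHFD2 TGF-β1 libraries, against 36.1 and 31.7 CPM in shMTHFD2 control libraries (0.71, edgeR adjusted p = 6.4e-05). In shMock it was at 63.1 and 64.1 CPM with TGF-β1, against 34.0 and 39.7 CPM without it (0.79, edgeR adjusted p = 1.8e-05). NOB1, a nuclease that trims the small subunit RNA, was lower with TGF-β1 in shMock (-0.51). Among 15 genes of RNA polymerase I and its factors, which make ribosomal RNA, 2 were higher and 1 lower with TGF-β1 in shMTHFD2 and 3 were higher and 2 lower in shMock, with POLR1G higher in both lines (0.95 and 0.83). Calls took 20% of these genes in shMTHFD2, beside 23.8% of all tested genes, and 33.3% in shMock, beside 35.4%.

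Unused ribosomal proteins are known to stabilise p53, so p53 targets were read as well. Of 13 targets, 4 were higher and 0 lower in shMTHFD2 against shMock with TGF-β1, SESN1 (0.50) and FDXR (0.48) leading, with 0 lower at an unadjusted p under 0.05 and 0 by DESeq2. DESeq2 called 7 of the 13 higher, and edgeR's 4 are 30.8% of the list, beside 13.1% of all tested genes called in either direction. Without TGF-β1, 3 were higher, led by SESN1 (0.64) and ZMAT3 (0.64), and 1, GDF15, was lower (-0.53). These calls took 30.8% of the list, beside 11.4% of all tested genes. With TGF-β1 in shMock, 3 targets were higher, led by MDM2 (0.27) and ZMAT3 (0.26), and 1, FDXR, was lower (-0.50). That is 30.8%, beside 35.4% of all tested genes, and the list's median was -0.12, with 5 fold changes above 0 and 8 below. With TGF-β1 in shMTHFD2, 2 were higher and 0 lower, 15.4% beside 23.8%, with 1 lower at an unadjusted p under 0.05 and 0 by DESeq2. RPS27L, itself a p53 target, was at 116 and 114 CPM in shMTHFD2 TGF-β1 libraries, against 116 and 135 CPM in shMock TGF-β1 libraries, and did not pass (-0.13, edgeR adjusted p = 0.41). Messages of replication histones mostly lack a poly(A) tail, so histone genes were read as well. The annotated principal transcripts are 381 bases for H2BC12 and 496 for H2BC5, but 1462 for H2AC6 and 2194 for H2BC21. Whether the messages counted carry a tail is not known from these data, so their calls do not show how RNA was captured. Of 5 tested histone genes, 3 were higher and 0 lower in shMTHFD2 against shMock with TGF-β1, led by H2BC5 (1.54) and H2BC12 (1.02). There were 0 lower at an unadjusted p under 0.05 in edgeR and 0 by DESeq2. The calls took 60% of the list, beside 13.1% of all tested genes. With TGF-β1 in shMock 2, H2BC12 (-0.88) and H2BC21 (-0.61), were lower, 40% beside 35.4%. Without TGF-β1, H2AC6 was higher in shMTHFD2 against shMock (0.77, edgeR adjusted p = 0.00046), 20% of the list, beside 11.4% of all tested genes. With TGF-β1 in shMTHFD2, H2BC21 was lower (-0.58, edgeR adjusted p = 0.0085), 20% of the list, beside 23.8% of all tested genes. The part of RNA capture in the members' calls was not tested.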

How the data were processed

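The deposited table holds whole-number counts per Ensembl gene ID, 1 column per library, although its name speaks of FPKM. STAR 2.7.1a, DESeq2 1.32.0 and the build GRCh38 are listed, without roles, per the submitters' processing notes. No source used here gives the counter, annotation, strand use or filters. Symbols were found for 60437 of 60666 IDs, and positions and overlaps came from GENCODE 29 (58420 IDs). All 8 libraries entered 1 edgeR 4.0.16 quasi-likelihood fit (R 4.3.3) with a mean per group, TMM factors (0.915 to 1.07) and 4 residual degrees of freedom. A gene was tested if it averaged 1 CPM or more, and p-values were adjusted (Benjamini-Hochberg) over all 13493, with a threshold of 0.05. The biological coefficient of variation was 8.79%. An SE is the log2 fold change divided by the root of F. CPM is on TMM-scaled totals. Precision is limited by 2 libraries a group. The script was tested on simulated data.

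Members, lists and tests were chosen with earlier results of these data known. Named members are, per comparison, the 8 with the largest fold change each way past the threshold, the L-ending members with their partners, the stalk genes and the extremes per kilobase. From each list of other genes up to 2 each way past the threshold are named, or the 2 most abundant where none passed. Y-linked relatives and some named genes are not reported here. Alternatives were other scaling factors, no filter, DESeq2, 2 groups only, a replicate block, pseudogene sums, each library left out and, added later, GC offsets (lowess span 0.3). Replicates differed by more than counting error (chi-square per degree of freedom 6.47 to 11.2). Same-numbered libraries did not deviate together (correlations -0.0203 to 0.0687).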

Additional observations from a re-analysis of the deposited data

How the results depend on the processing

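Directions of the called members that the naming rule picked held in every setting tried. The smaller called falls outside that rule were not followed. The members' medians relative to all tested genes were nearly the same under each scaling. These medians moved with single libraries. With 1 library left out, the gap to all tested genes ran from -0.06 to 0.09 for shMTHFD2 against shMock with TGF-β1, -0.16 to -0.04 without it, -0.06 to 0.11 for TGF-β1 in shMTHFD2, -0.14 to -0.03 in shMock and 0.03 to 0.20 for the interaction. Calls were less stable. For shMTHFD2 against shMock with TGF-β1, the 2 higher calls became 7 with library totals, 6 without the low-count filter, 1 with GC offsets and 4 with only the 2 groups, and ran from 0 to 4 with 1 library left out. The 1 lower call became 0 with library totals and 2 without the filter (0 to 2 with 1 library left out). Without TGF-β1, the 2 lower calls became 0 with library totals (0 to 2 with 1 left out). For TGF-β1 in shMTHFD2, the 1 higher call became 0 with library totals and with upper-quartile factors, 2 without the filter and 2 with DESeq2 (0 to 1 with 1 left out). The 0 lower became 2 with library totals, and the median of 0.02 became -0.094. For TGF-β1 in shMock, the 4 higher calls became 1 with library totals and with upper-quartile factors (1 to 5 with 1 left out). The 15 lower became 47 with library totals (3 to 18 with 1 left out), and the median of -0.11 became -0.25. The interaction had 5 higher without the filter, in place of 0 (0 to 2 with 1 left out). Shares of counts over nuclear protein-coding genes were 2.77% in shMTHFD2 TGF-β1, 3.06% in shMTHFD2 control, 2.55% in shMock TGF-β1 and 3.06% in shMock control, so that the control lines, at 2.78% and 2.85% of all counts, did not differ in mean by this denominator. The cause was not tested in any of these.

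A replicate block changed few calls. It gave 3 higher and 17 lower members with TGF-β1 in shMock, and the same counts as without it in the other 4 comparisons. Nothing in the labels pairs same-numbered libraries, and over all tested genes they did not deviate together, so the main fit used no block. Whether the numbers mark a shared culture or day is not known.

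Among fold changes of single named members, 1150 kept their direction and side of the threshold, 61 lost and 17 gained a call, and 21 changed sign, none of them called. For shMTHFD2 against shMock with TGF-β1, library totals gave 0.072 for RPL36AL and 0.087 for RPL3, and GC offsets gave -0.021 for RPL10. With 1 library left out, RPL36AL ran from -0.12 to 0.10, RPS27 from -0.087 to 0.25 and RPLP0 from -0.089 to 0.12. Without TGF-β1, RPL39 ran from -0.24 to 0.067. For TGF-β1 in shMTHFD2, library totals gave -0.088 for RPS27, -0.093 for RPL39, -0.11 for RPL3, -0.048 for RPLP0 and -0.10 for RPLP1. With 1 library left out, RPS27 ran from -0.15 to 0.18, RPLP0 from -0.041 to 0.16, RPLP1 from -0.11 to 0.13 and RPLP2 from -0.13 to 0.26. GC offsets gave 0.081 for RPL10 with TGF-β1 in shMock and -0.0072 for RPL3 in the interaction, where RPL39 ran from -0.31 to 0.0033 with 1 library left out.

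With 2 libraries a group, 1 hairpin per target and unknown strand use, fold changes near 1.2 sit at the edge of what the test can call, and overlaps of the genes with others could not be resolved.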
